A study of Oryza sativa with 4 samples.

Results

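The 8 genes of chlorophyll breakdown and leaf senescence described here were measured in leaves of Nipponbare rice, the japonica cultivar of the rice reference genome, out of 37858 gene IDs in the deposited count table. The 8 genes were taken by their IDs, which the list pairs with the names NYC1, NOL, SGR, SGRL, NYC3, PAO, RCCR and NAP, and their levels in these libraries were known when the list was drawn up. All 8 were found in the table, and all 8 were among the 22184 IDs that passed the filter on low counts. The count table itself holds IDs without names. In the RefSeq gene table at hand (assembly ASM3414082v1), the names NYC1, NOL, SGR and RCCR1 (for RCCR) were found, 4 of 8, each on the chromosome that its rice ID gives.

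Leaf RNA was sequenced from progeny of heat-treated seed (heated, 2 libraries) and from progeny of control seed (control, 2 libraries). The terms heated leaves and control leaves name these groups, and the heat treatment meant is that of the seed. Both heated libraries carry a treatment label of 30 °C. Control 1 carries 25 °C and control 2 carries 30 °C, and the labels do not say whether its 30 °C is an entry error. All 4 libraries share the cultivar, the tissue and the library kit. Leaf age is not in the labels, nor whether the replicates are different plants, and the errors given here cover only the spread between these libraries. Total expected counts lay between 15444235 and 17298384 per library. The controls were farther apart than the heated libraries. Levels were at least 2-fold apart, in either direction, in 10.3% of tested genes between the controls, against 4.9% between the heated libraries. The leaf label was not checked against marker genes, because the reference table matched none of the marker IDs.

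Chlorophyll is dismantled in a fixed order when a leaf ages or is darkened. NYC1 (Os01g0227100) and NOL (Os03g0654600) are the subunits of chlorophyll b reductase, which starts the conversion of chlorophyll b to chlorophyll a. SGR (STAY-GREEN, Os09g0532000) removes the central magnesium of chlorophyll a, and SGRL (Os04g0692600) is its close relative. NYC3 (Os06g0354700), a pheophytinase, cuts off the phytol tail, PAO (Os03g0146400) opens the ring, and RCCR (Os10g0389200) reduces the red product to a colourless precursor of the catabolites stored in the vacuole. NAP (Os03g0327800) is a NAC-family transcription factor that promotes leaf senescence in rice. Several of these genes are known from rice mutants whose leaves stay green. No sequences are shown, since the reference tables used here hold none.

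The senescence regulator NAP and the dechelatase gene SGR stood far higher in heated than in control leaves, while the genes for chlorophyll b reductase stood at similar levels in both. The later enzymes NYC3, PAO and RCCR were moderately higher in heated leaves, by 1.31- to 1.54-fold, and SGRL was lower; none of these 4 was among the genes called. In the edgeR quasi-likelihood fit over all genes, 2 of the 8 genes, SGR and NAP, were among the genes called at a Benjamini-Hochberg adjusted p under 0.05, where 0.699% of all tested genes were called. Both were higher in heated leaves, as were 0.248% of all tested genes, and 0 of the 8 were among the calls lower in heated leaves, which made up 0.451%. Because the genes were listed with these levels in view, their folds and calls describe the list and test nothing about it. The RNA came from whole leaf samples, in which fewer cells of a type and less RNA per cell cannot be told apart.

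**Figure D1:**
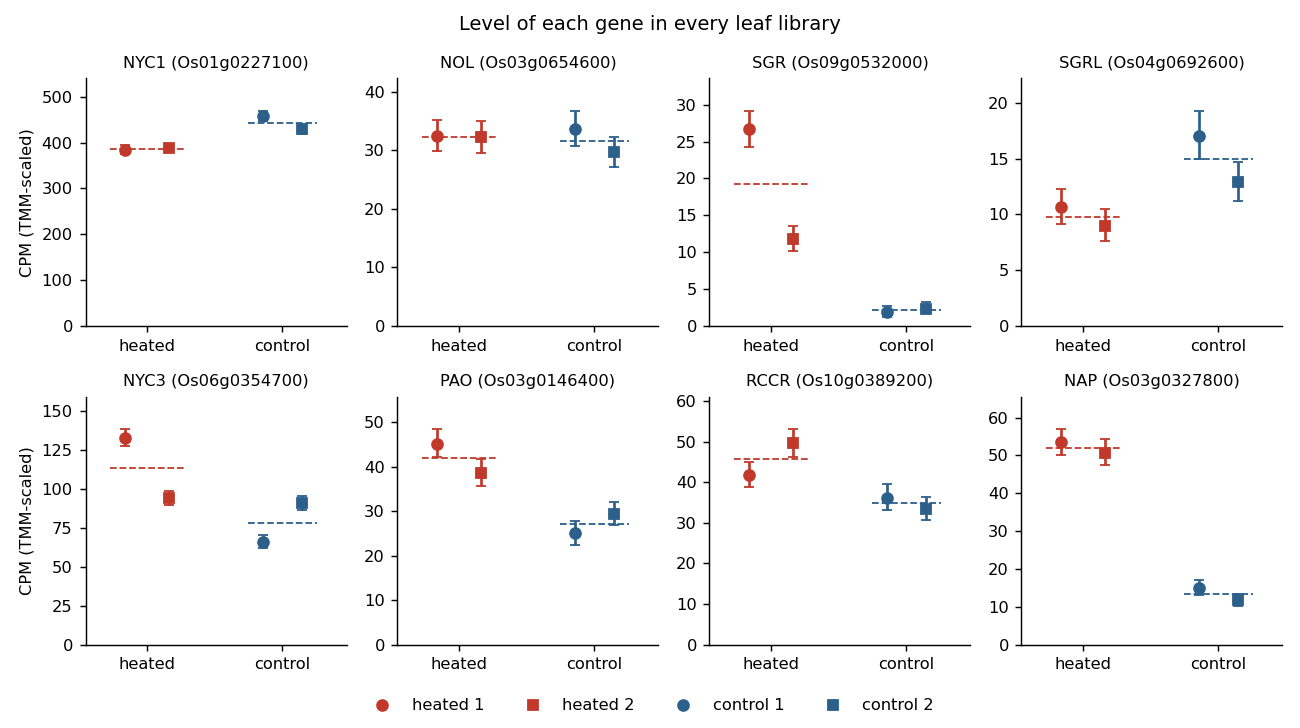
Level of each of the 8 genes in the 4 libraries, in CPM, counts relative to the TMM-scaled library size (linear axis from 0). Points are single libraries with exact 95% counting intervals, and dashed lines are group means. SGR and NAP lie well apart between heated and control, whereas NOL overlaps and heated 2 and control 2 nearly meet in NYC3.

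NAP, the transcription factor, had 954 and 856 counts in heated 1 and 2, against 218 and 202 counts in control 1 and 2. Relative to the TMM-scaled library size (CPM) this was 53.4 and 50.8 CPM in heated leaves and 15.0 and 11.7 CPM in control leaves. The heated libraries lay close together and both were far above both controls. The mean was 52.1 ± 1.90 CPM in heated and 13.3 ± 2.35 CPM in control leaves (SD, n = 2 each). The fitted log2 fold change, heated over control, was 1.97 (SE 0.17), a 3.92-fold higher level with a 95% interval of 2.93- to 5.25-fold. Taken library by library, NAP was between 3.39-fold (heated 2 over control 1) and 4.59-fold (heated 1 over control 2) higher. By the size of its fitted change, NAP ranked 389 of the 22184 tested genes.

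SGR, the gene of the dechelatase, had 476 and 199 counts in heated 1 and 2, against 27 and 41 counts in control 1 and 2. These were 26.7 and 11.8 CPM in heated leaves and 1.85 and 2.37 CPM in control leaves. SGR was thus scarce in both controls and higher in both heated libraries, with no overlap. The heated libraries themselves differed, and heated 1 had 2.26 times the level of heated 2 (exact 95% counting interval 1.91 to 2.68). The mean was 19.2 ± 10.5 CPM in heated and 2.11 ± 0.362 CPM in control leaves (SD, n = 2 each). SGR was the only 1 of the 8 genes whose heated libraries were at least 2-fold apart, against 4.9% of all tested genes, and 0 of the 8 were that far apart between the controls, against 10.3%.

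The fitted log2 fold change of SGR was 3.18 (SE 0.44), a 9.06-fold higher level in heated leaves with a 95% interval of 4.30- to 19.1-fold. It ranked 141 of the 22184 tested genes by size. The smallest ratio between single libraries was 4.99, for heated 2 over control 2 (counting interval 3.55 to 7.16). The largest was 14.4, for heated 1 over control 1 (9.76 to 22.1). The size of the change rested in part on heated 1: without this library the log2 fold change was 2.48. It was 3.65 without heated 2, 3.02 without control 1 and 3.36 without control 2. With all libraries SGR was called at an edgeR adjusted p of 0.0470. SGR was not called by limma-voom (log2 fold change 3.06) or by edgeR without scaling beyond the total count (3.25). Its change there was about as large as in the reported fit. Over the 12 alternatives that keep the heated and control groups, the adjusted p ran from 3.14e-09 with the DESeq2 Wald test to 0.140 with limma-voom. NAP was called in all 12 of them.

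**Figure D2:**
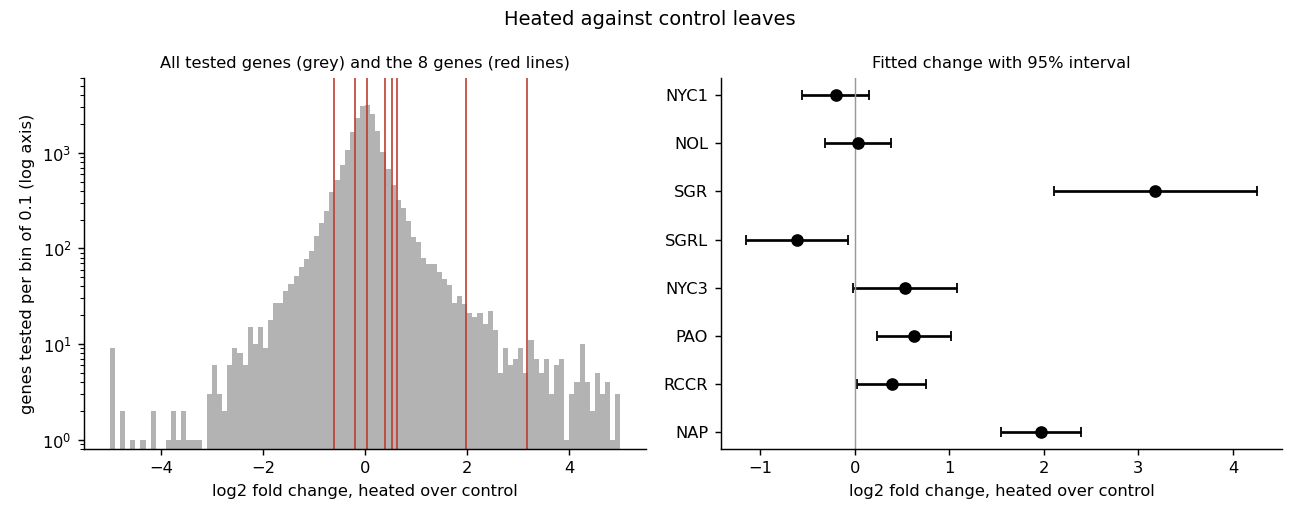
Fitted log2 fold changes, heated over control. Left, all 22184 tested genes in grey on a log count axis, with values past either end placed in the end bins, and the 8 genes as red lines. Right, each gene with its 95% interval. SGR at 3.18 and NAP at 1.97 lie in the upper tail, and the other 6 genes lie between -0.61 and 0.62.

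SGRL, the relative of SGR, was lower in both heated libraries than in both controls. It had 190 and 151 counts in heated 1 and 2, against 248 and 223 counts in control 1 and 2. These were 10.6 and 8.95 CPM in heated leaves and 17.0 and 12.9 CPM in control leaves, and the groups did not overlap. Its log2 fold change in the fit was -0.61 (SE 0.22), with a 95% interval of -1.15 to -0.07, and SGRL was not among the genes called. For heated 1 over control 2, the closest pair, the ratio was 0.827 with a counting interval of 0.678 to 1.01.

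The balance between SGR and SGRL can be read within each library, where the scaling of library size has no part. There were 2.51 SGR counts for each SGRL count in heated 1 and 1.32 in heated 2, against 0.109 in control 1 and 0.184 in control 2. The counting intervals of both heated libraries lay above 1 (2.11 to 2.98 and 1.06 to 1.64), and those of both controls lay below it (0.0703 to 0.162 and 0.128 to 0.257). SGR thus had more counts than SGRL in both heated libraries and fewer in both controls. These are ratios of counts and not of molecules, because transcript lengths were not used here. For the same reason the levels of the other genes are not ranked against each other.

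NYC1, the chlorophyll b reductase gene named for a non-yellow mutant, had the most counts of the 8 genes, 6867 and 6554 in heated 1 and 2 and 6677 and 7434 in control 1 and 2. It had 385 and 389 CPM in heated leaves, against 459 and 429 CPM in control leaves. Both heated libraries lay below both controls, by little. In the fit the log2 fold change was -0.20 (SE 0.15), and its 95% interval of -0.55 to 0.16 spans a level between 0.682-fold and 1.11-fold that of control leaves. A change of 2-fold in either direction lies outside this interval.

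NOL, the NYC1-like subunit, had 580 and 543 counts in heated 1 and 2, against 490 and 514 in control 1 and 2. Its levels of 32.5 and 32.2 CPM in heated leaves fell between the 33.6 and 29.7 CPM of control 1 and 2, and NOL was the only 1 of the 8 genes whose groups overlapped. Its log2 fold change was 0.03 (SE 0.14), with a 95% interval of -0.32 to 0.38, or 0.803- to 1.30-fold. Its direction depended on the library taken as control: it was -0.071 on the log2 scale without control 2. There were 0.0845 and 0.0829 NOL counts per NYC1 count in heated 1 and 2, against 0.0734 and 0.0691 in control 1 and 2.

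NYC3, the pheophytinase, was close in level between heated 2 and control 2 and apart in the other libraries. It had 2374 and 1586 counts in heated 1 and 2, against 964 and 1572 counts in control 1 and 2. Levels were 133 and 94.0 CPM in heated leaves and 66.2 and 90.7 CPM in control leaves. Heated 2 was 1.04-fold above control 2, with a counting interval of 0.966 to 1.11 that includes equal levels, whereas heated 1 was 2.01-fold above control 1. The fitted log2 fold change was 0.53 (SE 0.23), and its 95% interval of -0.02 to 1.08 included 0. Within each pair NYC3 differed by 1.41 (heated 1 over heated 2) and 1.37 (control 2 over control 1), about as much as between the group means.

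PAO, which opens the chlorophyll ring, had 807 and 652 counts in heated 1 and 2, against 364 and 509 counts in control 1 and 2. It had 45.2 and 38.7 CPM in heated leaves and 25.0 and 29.4 CPM in control leaves, so that the groups lay apart. The mean was 41.9 ± 4.63 CPM in heated and 27.2 ± 3.09 CPM in control leaves (SD, n = 2 each). Heated over control, the log2 fold change was 0.62 (SE 0.16), a 1.54-fold higher level in heated leaves with a 95% interval of 1.18- to 2.02-fold. PAO was not among the genes called.

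RCCR, which acts on the product of PAO, had expected counts of 747.93 and 836.64 in heated 1 and 2, against 527.73 and 579.92 in control 1 and 2. These counts were fractional, the only such case among the 8 genes, as can arise when reads fit more than 1 gene. The reads themselves were not examined, and the level of RCCR is uncertain to that extent. It had 41.9 and 49.6 CPM in heated leaves and 36.2 and 33.5 CPM in control leaves. Heated 2 was the higher of the heated libraries here, in contrast to SGR, NYC3 and PAO. The fitted log2 fold change was 0.39 (SE 0.15), a 1.31-fold higher level with a 95% interval of 1.02- to 1.69-fold, and RCCR was not among the genes called.

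**Figure D3:**
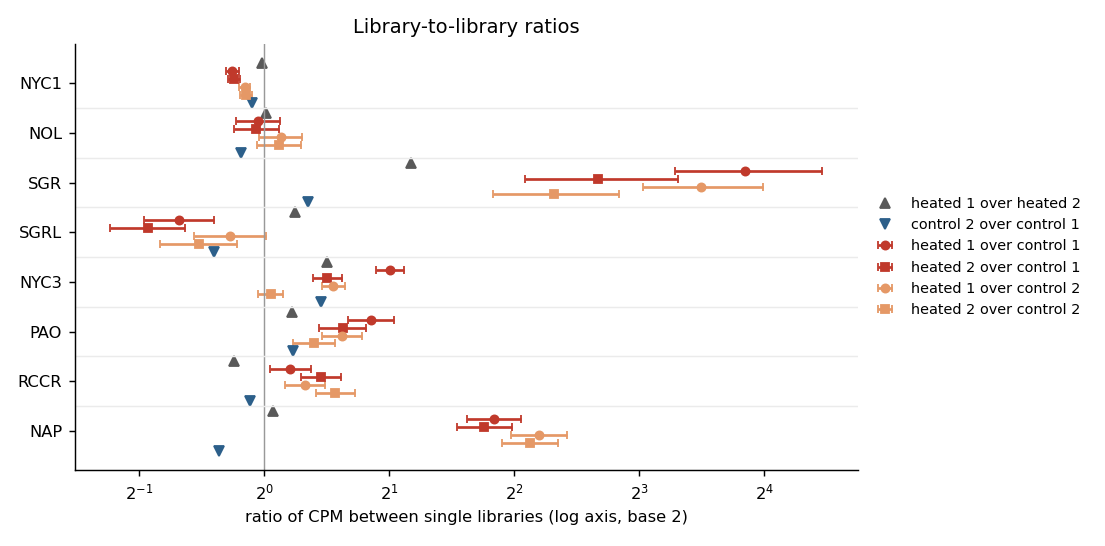
Ratios of CPM between single libraries on a log axis of base 2. Circles and squares are heated over control ratios with exact 95% counting intervals, red against control 1 and orange against control 2; triangles are the ratios within the heated pair and within the control pair. For NAP all heated over control ratios lie between 3.39 and 4.59, for SGR they run from 4.99 to 14.4, and for NYC3 the ratio of heated 2 over control 2 is 1.04.

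Both heated libraries lay on the same side of both controls in 7 of the 8 genes, and did so in 40.5% of all tested genes. They were higher in 5 (SGR, NYC3, PAO, RCCR and NAP), against 21% of all tested genes, and lower in 2 (NYC1 and SGRL), against 19.5%. Both heated libraries were at least 2-fold above both controls in SGR and NAP, and in 1.61% of all tested genes. The median fitted log2 fold change of the 8 genes was 0.46, beside 0.01 over all tested genes, of which the quartiles were -0.20 and 0.20. The order from heated 1 over heated 2 and control 2 down to control 1 was shared by SGR, NYC3 and PAO, 3 of the 8 genes, and by 8.16% of all tested genes. The other 5 genes (NYC1, NOL, SGRL, RCCR and NAP) had control 1 above control 2. For SGR and RCCR the order of the controls lay within counting error. The counting interval of control 2 over control 1 was 0.766 to 2.16 for SGR and 0.819 to 1.04 for RCCR.

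**Figure D4:**
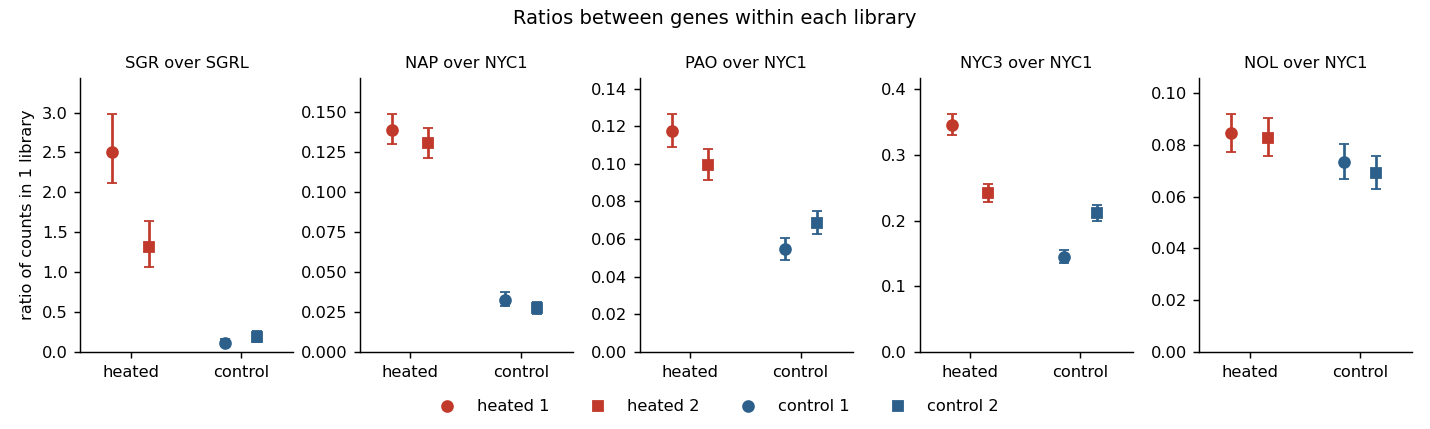
Ratios between the counts of pairs of genes within each library (linear axes from 0), with exact 95% counting intervals. SGR over SGRL is above 1 in both heated libraries and below 1 in both controls, and NAP over NYC1 is 0.139 and 0.131 in heated 1 and 2 against 0.0326 and 0.0272 in control 1 and 2.

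Set against NYC1 in the same library, the later enzymes can be compared without any scaling of library size. There were 0.118 and 0.0995 PAO counts per NYC1 count in heated 1 and 2, against 0.0545 and 0.0685 in control 1 and 2. For NYC3 there were 0.346 and 0.242 in heated 1 and 2, against 0.144 and 0.211 in control 1 and 2. The NYC3 interval of heated 2 (0.229 to 0.256) lay above that of control 2 (0.200 to 0.223), while their CPM intervals overlapped. NYC1, the denominator, was itself lower in heated 2 than in control 2, at a ratio of 0.906 (counting interval 0.876 to 0.937), against 1.04 for NYC3. For SGR and NAP there were 0.499 and 0.232 SGR counts per NAP count in heated 1 and 2, against 0.124 and 0.203 in control 1 and 2. The interval of heated 2 (0.198 to 0.272) overlapped that of control 2 (0.141 to 0.285), and heated 1 (0.446 to 0.558) stood above the rest.

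The temperature label of control 2 bears on how each gene is read. Measured in log2 CPM as a share of the distance between control 1 (0) and the mean of the heated libraries (1), control 2 lay at 0.10 for SGR and at -0.20 for NAP, so that in these genes it stood with control 1. It lay at 0.60 for NYC3 and at 0.31 for PAO, between control 1 and the heated mean, and at -0.35 for RCCR, on the far side of control 1. For SGRL and NYC1 it lay at 0.51 and 0.39. Grouped by that label, with the 3 libraries at 30 °C set against control 1 at 25 °C, 0 of the 8 genes were among the calls of the same edgeR test, which took 0.747% of the genes tested. The 25 °C side is 1 library, and where control 2 stands with control 1, as for SGR and NAP, the gap between control 2 and the heated libraries enters the spread of this grouping by construction. In it the log2 fold change, 30 °C over 25 °C, was 2.87 (SE 1.42) for SGR and 1.37 (SE 0.87) for NAP. Without control 2, 5 of the 8 genes (SGR, SGRL, NYC3, PAO and NAP) were among the 2506 genes called of 22911 tested, or 10.9%. Without heated 1, NAP was the only 1 of the 8 among the 64 called of 22786 tested, or 0.281%.

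SGR had the widest range over the 4 libraries, 3.53 on the log2 scale, and NAP followed with 2.15. The tested IDs with the profile most like that of SGR, by Euclidean distance between log2(CPM + 0.5) values centred on each gene's own mean over 4 libraries, were Os12g0564100 (distance 0.19) and Os03g0661600 (distance 0.23). Os12g0564100 had 5.10 and 2.43 CPM in heated 1 and 2, against 0.0687 and 0.115 CPM in control 1 and 2. Its control levels lay below the pseudocount of 0.5, which narrows its range in this distance. The fitted log2 fold change of Os12g0564100 was 5.22, against 3.18 for SGR. With control levels this low, the size of the Os12g0564100 change is poorly fixed. Os03g0661600 had 11.3 and 5.87 CPM in heated 1 and 2, against 0.549 and 0.981 CPM in control 1 and 2, with a fitted log2 fold change of 3.46. Both were about as far apart between heated 1 and heated 2 as SGR was, which follows from choosing them by likeness over these same libraries. Among the 8 genes, the one nearest to SGR was NAP, at a distance of 1.24.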

How the data were processed

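The authors deposited expected counts from RSEM, 1 value per gene and library and not normalized, per the file headers. FastQC 0.11.7, Trimmomatic, Bowtie2, RSEM, edgeR 3.26.3 and the build IRGSP-1.0 are named in the submitters' processing notes; settings, annotation and strand use: not given in the sources used here. Per the labels' protocols the kit marks strand. The table had 0 columns of other samples. The 8 genes and all lists were chosen with earlier results of these data known, and all 8 are named. For SGR, the gene with the widest range, the 2 nearest IDs are also named. The 41 other pathway and marker IDs listed were not used, because 0 of them are named in the reference table.

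Expected counts were rounded, and edgeR 4.0.16 in R 4.3.3 fitted a quasi-likelihood model to the 4 libraries with group as its term, filterByExpr (minimum count 10, minimum total 15) and TMM scaling. The threshold for a call was 0.05 on the p adjusted by Benjamini-Hochberg over all tested genes. CPM were computed from the unrounded counts and the TMM-scaled library sizes, with a pseudocount of 0.5 where logged. The SE is the log2 fold change divided by the square root of F, and 95% intervals use the fit's total degrees of freedom. Both draw on the spread of other genes too, so they are not the spread of a single gene's replicates alone. Counting intervals are exact (Poisson for levels, binomial for ratios) and cover counting error only. The fit was also run on simulated counts drawn with its own estimate of the spread, which cannot show how well that estimate suits a single gene. Alternatives included DESeq2 1.42.0 and limma 3.58.1.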

Additional observations from a re-analysis of the deposited data

How the results depend on the processing

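Of 104 values of the 8 genes under an alternative, 94 kept their direction and their side of the threshold, 5 lost the call, 3 gained it and 2 reversed. The 5 lost calls were all of SGR or NAP, and most of the 104 values belong to genes that had no call to lose. The reversed values were both of NOL, at -0.10 by treatment label and -0.071 without control 2, against 0.03 in the reported fit; NOL ran from -0.071 to 0.12 when 1 library was left out. The 155 calls over all genes became 419 without a filter, 551 with the DESeq2 Wald test and 532 with a replicate block, and 64 to 2506 when 1 library was left out. The count of the 8 genes called was 2; it was 1 without scaling beyond the total, 1 with limma-voom, 0 by treatment label, and 1 to 5 when 1 library was left out. Of 22184 tested genes, 155 were called in the reported fit, 114 without scaling beyond the total and 131 with limma-voom. The 419 calls without a filter were out of 29698 tested genes, and the 551 with the DESeq2 Wald test out of 23456. The count of the 8 genes called stayed at 2 with the replicate block, where 532 of 22184 were called, SGR and NAP among them. The labels do not say that replicate numbers mark a shared batch, and across genes the difference between replicates 2 and 1 correlated at -0.01 between heated and control. The count of the 8 genes whose groups did not overlap was 7, and 7 or 8 under other scalings. It was also 7 or 8 when 1 library was left out, alternatives chosen after seeing the data. There the count cannot fall, since fewer libraries can only keep or add genes without overlap. Over all tested genes the share was 40.5% with all 4 libraries, and it was not taken for the alternatives. What caused these shifts was not tested. Where a group kept only 1 library, its spread was taken from the other group. Depth limits SGR most, with 27 and 41 counts in the controls.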
